A study of Mus musculus with 6 samples.

Results

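Checkpoint ligands and phagocytosis signals are 9 genes whose products a tumour cell shows or releases to the immune system: Cd47, Cd24a, Hmgb1, Anxa1, Cd274, Cd276, Nt5e, Lgals1 and Lgals9. They were taken by gene symbol from a table of 55291 genes, and all 9 have a row. RNA was sequenced from LLC cells (Lewis lung carcinoma), a cancer line of the mouse lung, given Cas9 with a guide RNA against calreticulin (Calr KO, n = 3) or with a control guide (control, labelled WT, n = 3). Both groups were cultured for 10 days after delivery of the plasmids, then plated in 3 wells each and collected after 48 hours, untreated. The design describes a single edited population per group spread over wells, so p-values measure the spread between wells and not between independent knockouts.

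Calreticulin is an endoplasmic reticulum (ER) chaperone that can reach the surface of a stressed or dying cell, where phagocytes read it as a signal to engulf the cell. CD47 and CD24 send the opposite signal, CD47 through SIRPα and CD24 through a sialic-acid-binding receptor on macrophages. PD-L1 (Cd274) and B7-H3 (Cd276) restrain T cells, CD73 (Nt5e) makes adenosine, which dampens lymphocytes, and galectins 1 and 9 bind glycans on T cells. HMGB1 and annexin A1, when released from dying cells, draw and activate antigen-presenting cells.

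Calr mRNA fell in the Calr KO libraries to 4467, 4216 and 4453 normalised counts (gene counts scaled between libraries by the authors), against 10711, 10202 and 11047 in the control libraries. Its log2 change was -1.28 (SE 0.04, limma adjusted p = 7.9e-07), so transcript was reduced and not absent, and the protein was not measured. The 6 libraries, all with the same batch label, summed to between 14040692 and 14099985 normalised counts. Correlations of log2 values across genes were 0.985 to 0.986 between libraries of the same group and 0.984 to 0.986 between groups. Among markers of other cells, Adgre1, C1qa and Tyrobp of 10 macrophage markers and 6 of 9 lymphocyte markers were listed at 0 in every library. All 9 lymphocyte markers averaged under 10, and their sum was 7.16 to 9.74 in Calr KO libraries, against 0 to 6.22 in controls, without overlap. The summed macrophage markers held 210 to 263 normalised counts in Calr KO libraries, against 202 to 237 in controls. Of these, Cd14 and Cd68 averaged 128 and 73.5 over the 6 libraries. Ptprc was 0 in every Calr KO library and 6.12, 0.591 and 2.20 in controls. Of 7 fibroblast markers none was at 0 in every library, and their sum was 2163 to 2521 in Calr KO libraries, against 2034 to 2503 in controls, most of it Pdgfra. Dcn averaged 31.9 ± 3.49 in Calr KO cells and 15.5 ± 3.03 in controls without overlap (log2 difference 1.01, limma adjusted p = 0.312), and Col1a2 was lower without overlap (log2 difference -0.32, limma adjusted p = 0.715). The 6 endothelial markers, of which Emcn was at 0, summed to 57.0 to 66.5 in Calr KO libraries and 47.7 to 70.6 in controls, and Cdh5 had 6.80, 5.91 and 37.4 in Calr KO libraries, against 3.59, 2.98 and 4.17 in controls (limma adjusted p = 0.574). The part of these markers in the results was not tested. Of 9 lung epithelial markers, Epcam, Krt19, Nkx2-1, Scgb1a1 and Sftpc were listed at 0, while the keratin Krt8 averaged 4770 ± 136 in Calr KO and 4472 ± 144 in control cells, so the lung label rests on no lung-specific marker here. In these bulk samples, fewer cells that express a gene and less RNA per cell cannot be told apart.

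No gene of the set passed the test, which was limma on log2(normalised count + 1), with Benjamini-Hochberg adjustment over the 13199 genes that averaged at least 10 normalised counts and a threshold of 0.05. Of the 9 genes, 8 were tested and 0 passed, where 0.280% of all tested genes did. At an unadjusted p under 0.05, limma found 2 of the 8, Hmgb1 and Lgals1, against 8.88% of all tested genes. The 8 tested genes had a median log2 change of -0.04 and a median size of change of 0.06, beside 0.00036 and 0.09 for all tested genes. Their median SE was also smaller, 0.06 beside 0.10 for all tested genes, so the smaller size does not mark the set as steadier. The groups did not overlap in 3 of the 8, Hmgb1 and Lgals1 on the higher side and Cd276 on the lower side, as in 14.8% of all tested genes.

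**Figure D1:**
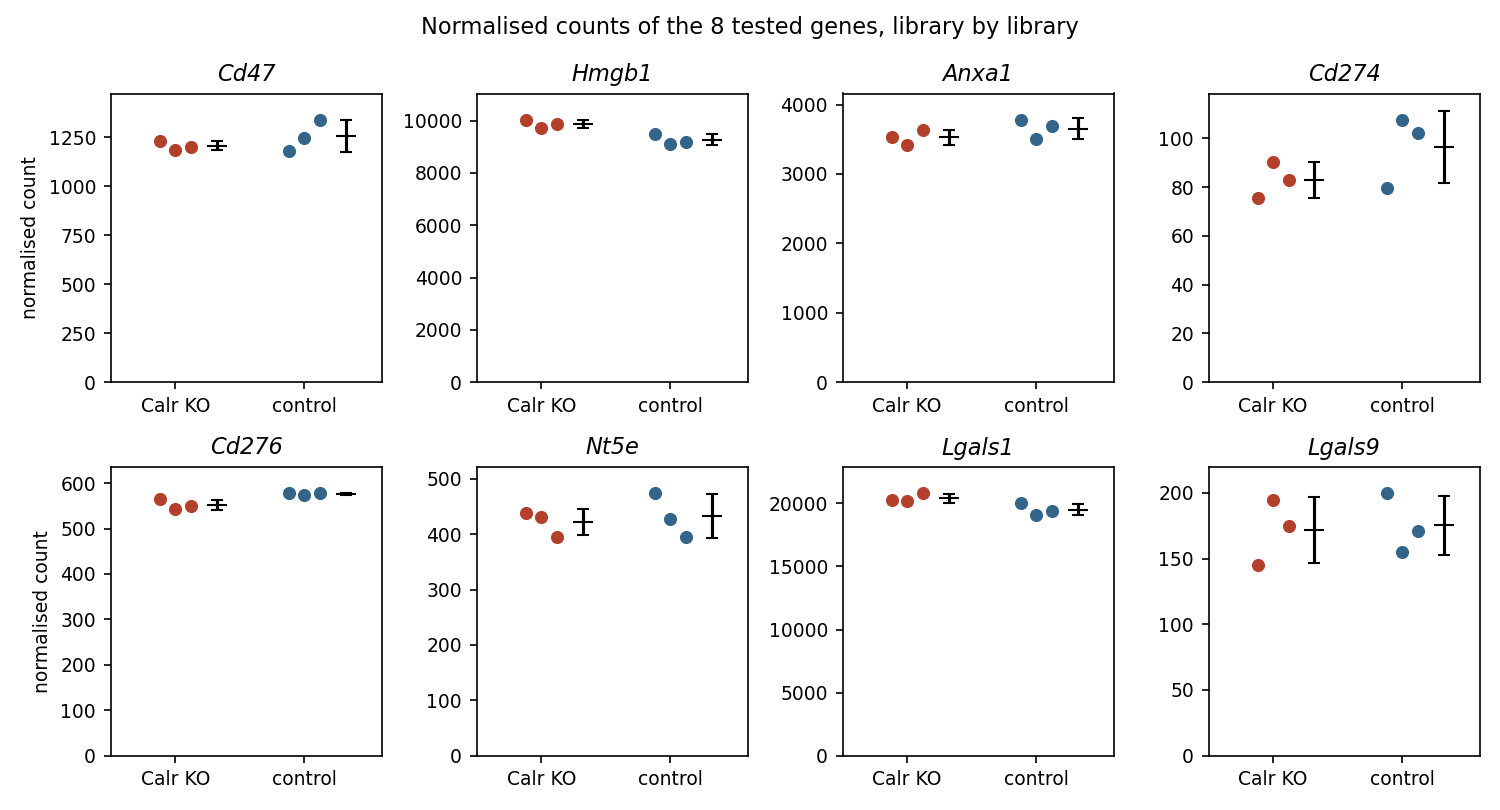
Normalised counts (vertical axes, from 0) of the 8 tested genes in the 3 Calr KO (red) and 3 control (blue) libraries; points are libraries and the black marks beside them are the mean ± SD. In Hmgb1 and Lgals1 the red points sit slightly above all blue points, in Cd276 slightly below, and the groups overlap in the other genes.

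Promoter sequences were matched in RefSeq (GRCm38.p6) for 7 of the 9 genes, with 9 annotated starts, and not for Cd24a and Lgals1. They are shown because the targeted gene encodes an ER chaperone, and ER stress acts on many genes of that kind through the ER stress response element (ERSE), which reads CCAAT, then any 9 bases, then CCACG. In the 250 bases before the start, on both strands, 0 of the 9 windows of these genes held an ERSE, beside 0.113% of all 32851 windows. The targeted gene Calr held an ERSE ending 143 bases before its start. The interferon-response core, GAAA repeated after any 2 bases, was found in Lgals9 and in 2.98% of all windows. TGACGTGG, a motif bound by ATF6 and XBP1, was in none of these genes and in 0.563% of all windows. The CCAAT box, which is also the first part of an ERSE, was in Hmgb1 and Cd276 and in 33.8% of all windows. In the windows of Anxa1, Cd276 and Nt5e all 250 bases are annotated in GENCODE as exon of the same gene, so the Cd276 matches lie in exon bases. The bases just after the RefSeq starts of Cd274, Cd276, Nt5e and the first of Hmgb1 were not found in the opening bases of a GENCODE transcript. A RefSeq start slightly before the GENCODE start also fails this search. For Cd274 the window ends at 29367437 and the GENCODE gene starts at 29367455. Matches describe letters in a window and do not show that a factor binds, and the absence of a match says only that these letters are not there. The windows of the largest difference in size (Cd274), of the lowest p (Hmgb1), of the interferon match (Lgals9) and of Calr are printed 5′ to 3′ along the gene, without bases annotated as exon of that gene. They are at chr19:29367188-29367437 on the plus strand (Cd274), and on the minus strand at chr5:149053058-149053260 (Hmgb1, the first of 2 starts), chr11:78984947-78985174 (Lgals9) and chr8:84846935-84847181 (Calr). Capitals mark the CCAAT boxes in Hmgb1, the interferon core read on the other strand in Lgals9 and the ERSE read on the other strand in Calr, and Cd274 has no match to mark.
Cd274: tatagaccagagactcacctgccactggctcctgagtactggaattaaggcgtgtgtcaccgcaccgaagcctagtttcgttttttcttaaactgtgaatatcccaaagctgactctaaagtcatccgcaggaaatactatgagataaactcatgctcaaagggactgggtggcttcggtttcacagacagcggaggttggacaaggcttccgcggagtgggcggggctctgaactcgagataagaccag
Hmgb1: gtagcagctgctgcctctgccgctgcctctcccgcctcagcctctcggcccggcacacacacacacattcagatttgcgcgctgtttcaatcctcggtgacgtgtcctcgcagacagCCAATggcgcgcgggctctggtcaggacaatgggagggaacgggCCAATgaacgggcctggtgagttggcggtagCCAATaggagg
Lgals9: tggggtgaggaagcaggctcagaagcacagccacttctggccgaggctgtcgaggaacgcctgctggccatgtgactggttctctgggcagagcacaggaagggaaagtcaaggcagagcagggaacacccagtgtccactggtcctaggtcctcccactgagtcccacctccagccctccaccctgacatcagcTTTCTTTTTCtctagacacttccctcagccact
Calr: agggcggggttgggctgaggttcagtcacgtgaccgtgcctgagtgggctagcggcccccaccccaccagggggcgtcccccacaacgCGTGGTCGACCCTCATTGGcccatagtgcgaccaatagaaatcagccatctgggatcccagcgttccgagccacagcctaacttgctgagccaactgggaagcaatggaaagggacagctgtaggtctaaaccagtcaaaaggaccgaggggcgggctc

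Of the signals that hold phagocytes off, Cd47 was present and did not pass, and Cd24a was not seen. Cd47 (ENSMUSG00000055447.19, chromosome 16, positions 49800533 to 49915010, plus strand, GRCm38) measured 1232, 1187 and 1201 normalised counts in the Calr KO libraries, against 1181, 1249 and 1340 in the control libraries. The Calr KO libraries lay close together and inside the range of the controls. Means ± SD (n = 3) were 1206 ± 23.1 in Calr KO cells and 1256 ± 79.8 in controls, a log2 difference of -0.06 (95% interval -0.19 to 0.08, limma adjusted p = 0.837). On the fold scale that interval runs from 0.877 to 1.05. Of the 5199 stretches of 50 bases in its longest coding transcript, 0.904% also occur in transcripts of 214 other genes. Of those genes 87 averaged at least 10 normalised counts. Whether their reads add to the value of Cd47 was not tested. Per library, the normalised count of Calr divided by that of Cd47 was 3.63, 3.55 and 3.71 in Calr KO cells and 9.07, 8.17 and 8.25 in control cells. That ratio differed mainly through Calr, whose Calr KO mean was 0.411 of the control mean, against 0.960 for Cd47.

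Cd24a (ENSMUSG00000047139.9, chromosome 10, positions 43578284 to 43584265) was listed at 0 in all 6 libraries, so no fold is given and it was not tested. Of the 1767 stretches of 50 bases in its longest coding transcript, 69 also occur in a transcript of another gene, Gm6212, which was listed at 0 as well. Whether reads of Cd24a were lost in the authors' quantification was not tested.

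Around CD47, 0 of 6 tested genes passed and the median log2 change was -0.11. The 2 with the lowest adjusted p were its ligands of the thrombospondin family. Thbs2 had 2331 ± 75.3 normalised counts in Calr KO cells and a log2 difference of -0.10 (limma adjusted p = 0.547), and Thbs1 a log2 difference of -0.29 (limma adjusted p = 0.697). Qpctl, the enzyme that modifies the start of CD47 so that SIRPα binds it, differed by -0.01. Sirpa, the receptor, was at most 1.03 normalised counts in any library. Around CD24, 0 of 5 tested genes passed. Slc35a1, which carries CMP-sialic acid into the Golgi, differed by 0.41 on the log2 scale (limma adjusted p = 0.503) and the sialyltransferase gene St3gal4 by 0.07 (limma adjusted p = 0.855).

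Of 14 tested eat-me and bridging genes 0 passed, with a median log2 change of -0.02. Axl, a receptor that binds phosphatidylserine through a bridging protein, had 3663, 3687 and 3698 normalised counts in the Calr KO wells, against 4155, 4036 and 3951 in the control wells, without overlap. Its log2 difference was -0.14 (limma adjusted p = 0.27). Lrp1, a receptor for calreticulin on phagocytes, had 8337, 6969 and 6712 normalised counts in the Calr KO wells, against 9144, 8625 and 8344 in the control wells. The highest Calr KO well nearly met the lowest control well without overlap, and the log2 difference was -0.25 (limma adjusted p = 0.339). Leaving out Calr KO replicate 1, the highest of its group, gave -0.35 and a limma adjusted p of 0.0368. It was the only gene of the 9 lists around the set to pass under any of the 17 alternative settings. Mfge8, a bridging protein that tags dying cells, also did not overlap between groups (2572 ± 32.3 in Calr KO cells) and differed by -0.06. In all, 3 of the 14 genes did not overlap between groups, beside 14.8% of all tested genes.

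**Figure D2:**
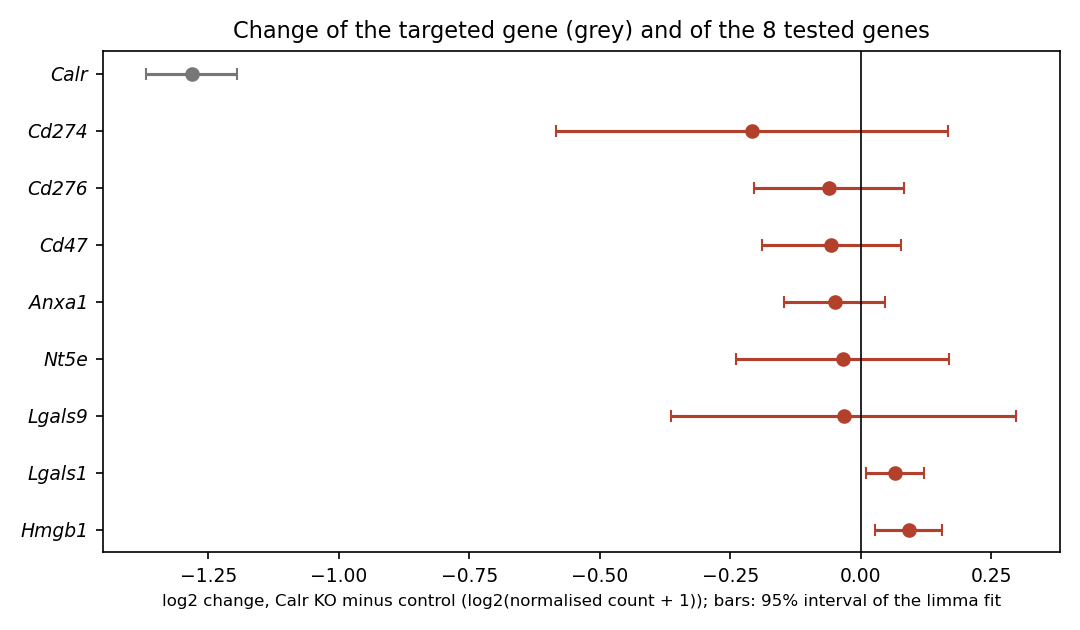
Log2 change, Calr KO minus control (horizontal axis, log2(normalised count + 1)), of Calr in grey and of the 8 tested genes in red, with 95% intervals of the limma fit. Calr lies at -1.28, and the 8 genes lie between -0.21 for Cd274 and 0.09 for Hmgb1.

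The released danger signals were abundant, and their differences were small. Hmgb1 (ENSMUSG00000066551.12, chromosome 5, positions 149046702 to 149184489, minus strand), a chromatin protein that alerts immune cells outside the nucleus, had 10034, 9701 and 9874 normalised counts in the Calr KO libraries, against 9505, 9112 and 9180 in the control libraries. Each Calr KO library exceeded every control, as in 7.57% of all tested genes in that direction. Means ± SD (n = 3) were 9870 ± 167 in Calr KO cells and 9266 ± 210 in controls, a difference of 6.52%. On the log2 scale they differed by 0.09 (95% interval 0.03 to 0.16, limma adjusted p = 0.381). The unadjusted limma p was 0.0101, and a two-sided exact permutation test over libraries gave p = 0.1, the smallest it can give with 3 against 3.

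The value of Hmgb1 carries a mapping limit. Of the 2789 stretches of 50 bases in its longest coding transcript, 40.9% also occur in transcripts of other genes, of which 6 averaged at least 10 normalised counts. The highest, Gm15387, held 348 to 400 in Calr KO and 333 to 408 in control libraries. The protein-coding gene Uspl1, on the other strand, overlaps the annotated Hmgb1 locus at 1 end, and the use of strand in counting is not stated in the labels. Its relatives Hmgb2 and Hmgb3 differed by 0.06 and -0.09 on the log2 scale.

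Anxa1 (ENSMUSG00000024659.15, chromosome 19, positions 20373428 to 20390944, minus strand), which guides antigen-presenting cells to dying cells through formyl peptide receptors, had 3536, 3414 and 3634 normalised counts in Calr KO libraries and 3781, 3497 and 3686 in control libraries. The groups overlapped. The log2 difference was -0.05 (95% interval -0.15 to 0.05, limma adjusted p = 0.791). None of its 50-base stretches occurs in another gene's transcripts. Of 7 other tested annexins 0 passed. Anxa6 had the lowest adjusted p, with 18.8 ± 0.447 normalised counts in Calr KO cells and a log2 difference of -0.46 (limma adjusted p = 0.655), and the abundant Anxa5 differed by -0.04.

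Of 10 other tested danger signals and receptors 0 passed, with a median log2 change of 0.07. Panx1, the channel that lets ATP out of dying cells, had 170, 162 and 178 normalised counts in the Calr KO wells, against 110, 93.6 and 133 in the control wells. All 3 Calr KO libraries were higher, as in 7.57% of all tested genes. The log2 difference was 0.61 (95% interval 0.27 to 0.94, limma adjusted p = 0.243). Il33, an alarmin, was low in both groups. It had 14.6, 35.2 and 12.5 normalised counts in the Calr KO wells, against 6.83, 3.56 and 8.27 in the control wells (limma adjusted p = 0.414).

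The B7 family ligands did not pass. Cd274 (ENSMUSG00000016496.7, chromosome 19, positions 29367455 to 29388095, plus strand), which encodes PD-L1, was the lowest of the 8 tested genes. It had 75.5, 90.3 and 83.0 normalised counts in the Calr KO libraries, against 79.7, 108 and 102 in the control libraries. The lowest control library lay inside the Calr KO range and the other controls above it. Means ± SD (n = 3) were 82.9 ± 7.37 in Calr KO cells and 96.5 ± 14.8 in controls. The log2 difference was -0.21, the widest of the set, and its 95% interval of -0.58 to 0.17 was also the widest (limma adjusted p = 0.773). On the fold scale the interval spans 0.667 to 1.12, so this level does not settle a moderate difference in either direction. Of its 50-base stretches, 12.4% occur in transcripts of 214 other genes, of which 83 averaged at least 10 normalised counts. As whole genes, those of the 214 with a row in the table summed to 77150 to 79410 in Calr KO libraries and 74120 to 77530 in controls. These totals do not measure the signal from the shared stretches alone. The genes include Hyou1, which rose (log2 change 0.47, limma adjusted p = 0.00468). Whether their reads add to the value of Cd274 was not tested.

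Cd276 (ENSMUSG00000035914.11, chromosome 9, positions 58524298 to 58555437, minus strand), which encodes B7-H3, had 565, 543 and 549 normalised counts in the Calr KO libraries, against 578, 573 and 578 in the control libraries. Each Calr KO library lay below every control, as in 7.28% of all tested genes in that direction. Means ± SD (n = 3) were 552 ± 11.5 in Calr KO cells and 576 ± 2.72 in controls, which lay close together. The log2 difference was -0.06 (95% interval -0.20 to 0.08, limma adjusted p = 0.838), and the exact permutation p was 0.1. Limma sets the error of a gene partly from genes of like level, and this error was 0.06. Of the 50-base stretches of Cd276, 10.3% are shared with Gm10657 on the other strand, which held at most 7.26 normalised counts.

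Pdcd1lg2, which encodes PD-L2, was listed at 0 in all libraries, as were Cd86 and Ido1. Of 7 other tested checkpoint ligands 0 passed. Pvr, the ligand of TIGIT and CD96, had the lowest adjusted p. It had 1393, 1457 and 1382 normalised counts in the Calr KO wells (1411 ± 40.9), against 1587, 1573 and 1624 in the control wells. Each Calr KO well lay below every control, as in 7.28% of all tested genes in that direction. The log2 difference was -0.18 (limma adjusted p = 0.299). Lgals3, which encodes galectin 3, differed by 0.08 (limma adjusted p = 0.739).

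Of 16 genes that control PD-L1 level or its induction by interferon 0 passed, while 7 had an unadjusted p under 0.05 and 6 did not overlap between groups, beside 8.88% and 14.8% of all tested genes. Their median log2 change was 0.03, and they lay on both sides of 0. Myc had 15223, 15890 and 15342 normalised counts in the Calr KO wells, against 16238, 17212 and 16469 in the control wells, a log2 difference of -0.10 (limma adjusted p = 0.326). Stt3a, the catalytic subunit of the oligosaccharyltransferase that glycosylates PD-L1 in the ER, had 3526 ± 160 in Calr KO cells and differed by 0.16 (limma adjusted p = 0.46). Ifngr2 differed by -0.32, Irf1 by 0.03 and Cmtm6, which keeps PD-L1 at the surface, by 0.03.

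Nt5e (ENSMUSG00000032420.8, chromosome 9, positions 88327197 to 88372092, plus strand) had 439, 432 and 395 normalised counts in the Calr KO libraries, against 474, 428 and 396 in the control libraries. The groups overlapped over most of their range. The difference on the log2 scale was -0.04 (95% interval -0.24 to 0.17, limma adjusted p = 0.948), and leaving out Calr KO replicate 3 or control replicate 1 turned its sign (0.011 and 0.032). Entpd1, which encodes CD39, the enzyme that supplies CD73 with AMP, was at most 1.56 normalised counts in any library. Of 6 other tested adenosine genes 0 passed. The nucleoside transporter gene Slc29a2 differed by 0.18 (limma adjusted p = 0.728), and Entpd2, another ectonucleotidase, had 77.1 ± 12.6 in Calr KO cells and differed by 0.31 (limma adjusted p = 0.756).

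The galectin pair stood far apart in level, and neither gene passed. Lgals1 (ENSMUSG00000068220.6, chromosome 15, positions 78926725 to 78930465, plus strand), which encodes the secreted galectin 1, had 20252, 20155 and 20803 normalised counts in the Calr KO libraries, against 20004, 19088 and 19427 in the control libraries. All 3 Calr KO libraries were higher, the lowest of them by less than the spread between replicates. Means ± SD (n = 3) were 20404 ± 349 in Calr KO cells and 19506 ± 463 in controls, a difference of 4.60%. On the log2 scale they differed by 0.07 (95% interval 0.01 to 0.12, limma adjusted p = 0.502). The unadjusted limma p was 0.0274, and the exact permutation p was 0.1.

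Lgals9 (ENSMUSG00000001123.15, chromosome 11, positions 78962974 to 78984946, minus strand), which encodes the TIM-3 ligand galectin 9, had 145, 194 and 175 normalised counts in the Calr KO libraries, against 200, 155 and 171 in the control libraries. The groups overlapped over nearly all of their range. The difference on the log2 scale was -0.03 (95% interval -0.36 to 0.30, limma adjusted p = 0.969), and its sign turned when Calr KO replicate 1 (0.082) or control replicate 1 (0.065) was left out. None of the 50-base stretches of Lgals1, Lgals9 or Nt5e occurs in another gene's transcripts. Of 10 other tested galectins and glycan-branching genes 0 passed, with a median log2 change of 0.00072. Mgat1, which starts the branching of the N-glycans that galectins bind, had 983, 1003 and 859 normalised counts in the Calr KO wells, against 832, 773 and 825 in the control wells. Its groups did not overlap, and the log2 difference was 0.22 (limma adjusted p = 0.417).

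**Figure D3:**
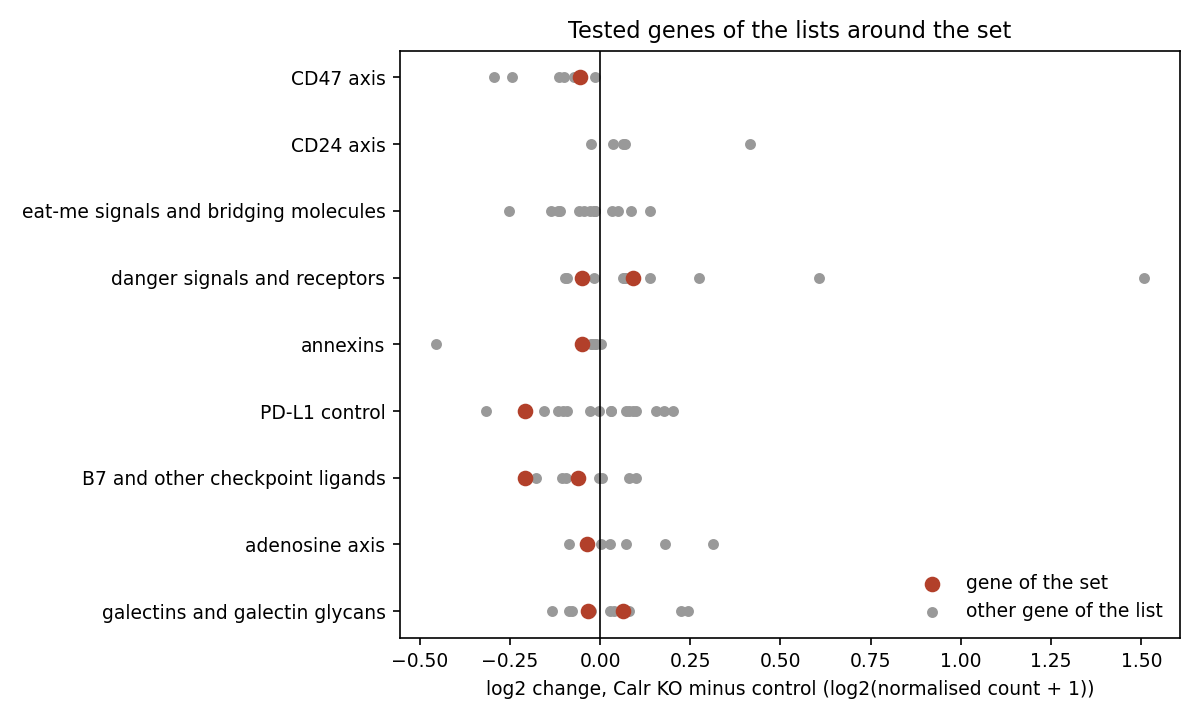
Log2 change, Calr KO minus control (horizontal axis, log2(normalised count + 1)), of the tested genes in 9 lists around the set; red points are the genes of the set and grey points the other genes. Most points lie within 0.3 of 0, with Il33 at 1.51 and Panx1 at 0.61 farthest to the right, and no gene shown passed the limma test.

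Levels between genes were compared per length, as normalised counts per kb of the longest coding transcript. Cd47 has 9 coding transcripts in the GENCODE basic set, Hmgb1 4 and Lgals9 3, and which were expressed was not measured. The order below therefore holds for these lengths only, and the mapping limit of Hmgb1 applies here too. Lgals1 was highest, at 25504 ± 437 per kb with Calr KO and 24383 ± 579 in controls (SD, n = 3). Hmgb1 followed, at 3478 ± 58.7 with Calr KO and 3265 ± 73.9 in controls. Anxa1 came next, at 2108 ± 66.0 with Calr KO and 2183 ± 86.5 in controls. The mRNAs of the surface proteins CD47 and B7-H3 were lower than that of Anxa1 by about an order of magnitude. Cd47 was at 230 ± 4.40 in Calr KO and 239 ± 15.2 in control cells. Cd276 was at 153 ± 3.18 with Calr KO and 160 ± 0.756 in controls. Lgals9 and Nt5e could not be ordered, since Lgals9 ranged from 91.3 to 123 and Nt5e from 98.8 to 110 per kb in Calr KO cells. Cd274 was lowest, at 22.9 ± 2.04 in Calr KO and 26.7 ± 4.09 in control cells. The order was the same in both groups, with the pair of Lgals9 and Nt5e unresolved in each.

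**Figure D4:**
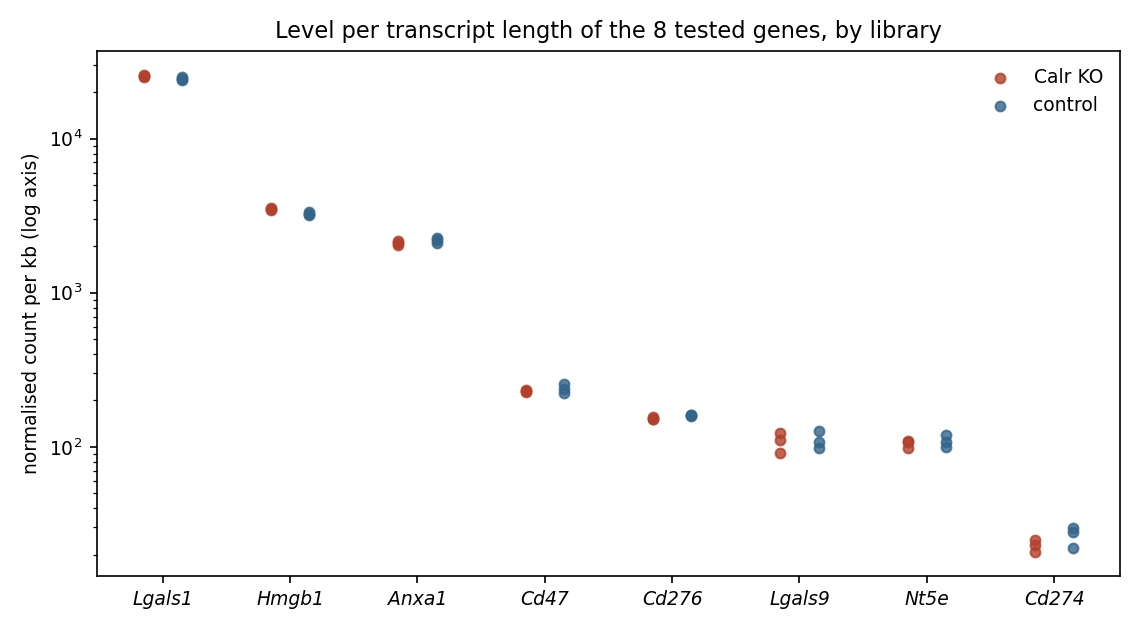
Normalised counts per kb of the longest coding transcript (log axis) of the 8 tested genes in Calr KO (red) and control (blue) libraries; each point is a library. Levels fall from Lgals1 near 25504 to Cd274 near 22.9 per kb in Calr KO cells, and the points of Lgals9 and Nt5e overlap each other.

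The sizes were set beside 10 ER chaperone and folding genes chosen because they rose in these data, so their count of 10 of 10 past the threshold is no result here. Hspa5, the BiP chaperone, averaged 29459 ± 1697 normalised counts with Calr KO, against 20765 ± 971 in controls, a log2 change of 0.50. The smallest change of the 10 was 0.30 (95% interval 0.20 to 0.41) for Canx, the membrane-bound relative of calreticulin. Among the 8 tested genes of the set the highest upper bound of a 95% interval was 0.30, for Lgals9. The upper bounds of Nt5e, Cd274, Hmgb1, Lgals1, Cd47, Anxa1 and Cd276 were 0.17, 0.17, 0.16, 0.12, 0.08, 0.05 and 0.08. Because the 10 were chosen for their rise, this contrast is a description only.

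The gene most like each of the 8 over the 6 libraries was taken by Pearson correlation of log2 values, out of 10267 named genes with a mean of at least 50. The highest correlations ran from 0.978 for Nt5e with Brk1 to 0.997 for Cd274 with Prkcd and 0.998 for Anxa1 with Mterf4. Hmgb1 was most like Ero1lb (0.991), an ER oxidase gene with a log2 difference of 0.41, and Lgals1 most like Rhobtb1 (0.994). Cd47 was most like Fkbpl (0.991), Cd276 most like Rit1 (0.990) and Lgals9 most like Il7 (0.994). Each value is the highest of 10267 correlations over only 6 libraries, a choice that by itself favours high values. The libraries also share the difference between groups and the scaling, so these values are a description only.

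**Figure D5:**
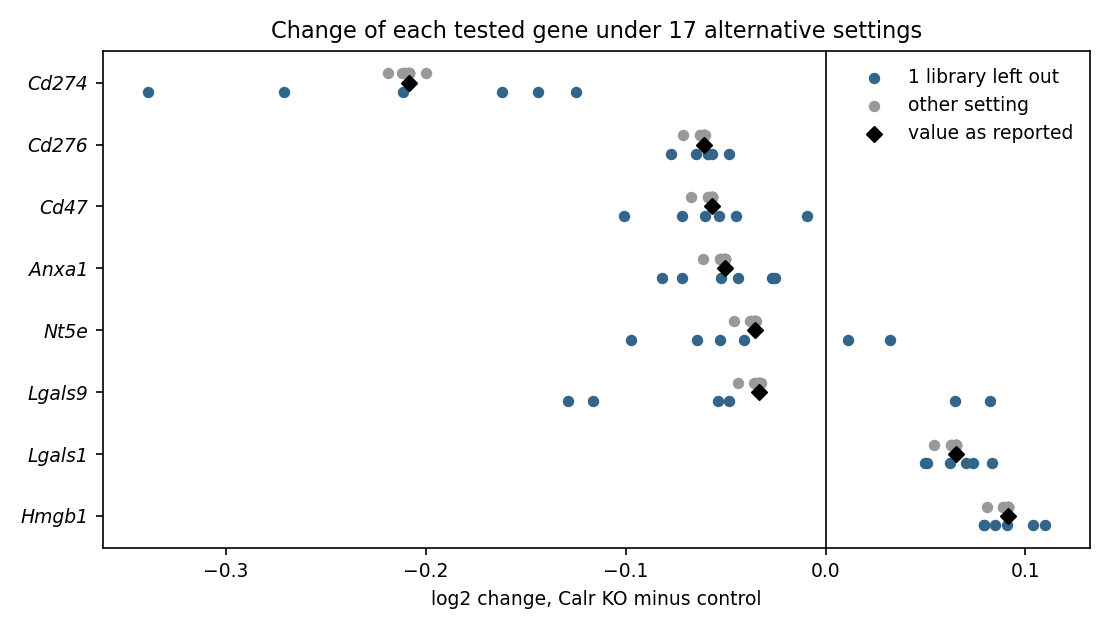
Log2 change, Calr KO minus control (horizontal axis), of the 8 tested genes as reported (black diamonds), with 1 library left out (blue) and under the other alternative settings (grey). Hmgb1 and Lgals1 stay above 0 throughout, between 0.08 and 0.11 and between 0.05 and 0.08, while Nt5e and Lgals9 fall on both sides of 0.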

How the data were processed

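Gene-level signal, counts that the authors normalised with DESeq2 per the labels, was deposited for 6 libraries prepared with a SMARTer mRNA kit. The build mm10, DESeq2 1.34.0, Salmon 0.14.1 and STAR 2.6.1d appear, without roles, in the submitters' processing notes. The commonest low value of each library gave the worth of 1 read, 0.945 to 1.04, and an estimated 13565886 to 14920619 reads. Only 3.12% to 6.02% of values of 100 to 1000 reads were whole within 0.02, so no count model was run.

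For genes with a mean of at least 10, log2(value + 1) was fitted in limma 3.58.1 (R 4.3.3). The variance prior followed the mean level, tests were two-sided and p-values were adjusted over all 13199 genes. Fold changes on this scale understate low genes. Alternatives changed the pseudocount, filter, scaling, variance prior or weights, added the replicate number as a block, or left out each library. The fit was tested on simulated data. Gene models and transcripts are GENCODE M21 (GRCm38). The members and lists were chosen with earlier results of these data known. Genes named besides the 9 were Calr and, per list, those past the threshold and up to 2 with the lowest adjusted p. Others, such as Qpctl, Mfge8, Sirpa, Entpd1, Hmgb2 and Cmtm6, were chosen after their values were seen.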

Additional observations from a re-analysis of the deposited data

How the results depend on the processing

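Under all 17 alternative settings limma placed 0 of the 8 tested genes of the set past the threshold. These settings tested 10913 to 23156 genes and only 2 to 42 of them passed. With so few genes passing, a count of 0 of 8 cannot show whether the result for the set is stable. At an unadjusted p under 0.05, Hmgb1 was found in 16 of 17 settings and Lgals1 in 12. The setting without the variance trend failed for both. There the unadjusted limma p was 0.113 for Hmgb1 and 0.236 for Lgals1, and both intervals included 0. The low unadjusted p-values of these genes therefore depended on the variance trend. Cd47, Hmgb1, Anxa1, Cd274, Cd276 and Lgals1 kept their direction in all 17; Nt5e ranged from -0.10 to 0.03 and Lgals9 from -0.13 to 0.08 with 1 library left out. Values of the opposite sign were 0.011 (without Calr KO replicate 3) and 0.032 (control replicate 1) for Nt5e, and 0.082 (Calr KO replicate 1) and 0.065 (control replicate 1) for Lgals9; the cause was not tested. Over all genes, 37 passed, 2 passed without the variance trend (the cause was not tested), and 20 to 34 passed with 1 library left out. With the replicate number as a block 26 genes passed. Over all tested genes, deviations from the group means were nearly uncorrelated between same-numbered libraries (correlations of -0.06, -0.01 and 0.0014). That gave no sign that the numbers pair the samples, but it cannot exclude pairing. Cd274 and Lgals9, the lowest in normalised counts of the tested genes of the set, had the largest errors, 0.17 and 0.15 on the log2 scale; how far depth sets these was not tested.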
